A study of Mus musculus with 6 samples.

Results

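Interferon-stimulated genes were followed across 6 single-colour mouse arrays. The list named 39 genes, chosen from the established response to interferon, and a gene was measured where the platform annotation paired a probe set with its symbol. This held for 37 of the 39, out of 19505 genes on the array, and Ifi44 and Nlrc5 were not analysed here. Each of the 37 had 1 probe set. The RNA was labelled as colon crypt RNA, the crypts being the epithelial glands of the large bowel, from C57BL/6J mice. One group of 3 arrays came from mice gavaged with MBELN, exosome-like nanoparticles of mulberry bark, each day for 7 days. The other 3 came from control mice, whose titles read PBS. All 6 samples shared the strain and the tissue label, and no other allele or agent was named. Nothing in the labels ties each array to its own mouse. The p-values therefore reflect only the variation among these 6 arrays, and with 3 arrays a group the precision is limited. Part of that variation may be technical, and arrays of 1 group also differed in tissue markers, as described below.

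Interferons are secreted proteins by which cells signal viral or bacterial infection. Type I and type III interferons act through receptor-bound Jak kinases on a complex with Stat2 and Irf9, which binds the interferon-stimulated response element (ISRE). Genes that answer to interferon gamma often carry another element, the gamma-activated site (GAS). The induced proteins block viral replication, sense foreign RNA, attack vacuoles that hold microbes and prepare peptides for MHC class I. In the gut, the epithelium answers mainly to type III interferon, and several of these genes have a tonic level there that depends on the microbiota and on resident lymphocytes.

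The promoters of the list were searched for both elements. RefSeq promoter windows of GRCm38.p6, which run from 250 bases before the start of the transcript to 50 bases after it, were found for 29 of the 37 genes. The ISRE core was searched as TTTC, any 2 bases and TTTC, which on the other strand reads GAAA, any 2 bases and GAAA, and matches may overlap each other. The GAS core was searched as TTC, any 3 bases and GAA, which reads the same on both strands and can overlap an ISRE. An ISRE match lay in the windows of 15 of the 29 genes (51.7%), against 3.99% of all 27025 genes with a window. A GAS match lay in those of 11 genes (37.9%), against 9.55% of all. Both were present for 5 genes and neither for 8, among them Irf7, Oasl2 and Trim25. A match describes the letters and does not show that a factor binds there. The stretches below end at the base before the transcript start, are written in the direction of the gene, and have the ISRE and GAS matches in capitals.

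Isg15 is shown for its 3 overlapping ISRE matches, and Ifit1 and Ifit3 because they carry the same pair of 10-base ISRE matches and yet, as described below, differed in their order across the arrays. Bst2 has 1 GAS and 2 ISRE matches that overlap. In GRCm38.p6 these stretches are chr4:156200819-156200908 (minus strand), chr19:34640774-34640888 and chr19:34583359-34583528 (plus strand) and chr8:71537473-71537617 (minus strand).
Isg15: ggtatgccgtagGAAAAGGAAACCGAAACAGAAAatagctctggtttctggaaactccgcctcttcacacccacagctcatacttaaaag
Ifit1: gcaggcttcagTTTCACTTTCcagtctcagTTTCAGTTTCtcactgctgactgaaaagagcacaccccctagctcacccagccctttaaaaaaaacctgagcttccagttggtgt
Ifit3: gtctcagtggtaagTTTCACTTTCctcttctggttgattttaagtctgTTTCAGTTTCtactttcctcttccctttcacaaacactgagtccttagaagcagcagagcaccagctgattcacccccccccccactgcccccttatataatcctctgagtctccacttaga
Bst2: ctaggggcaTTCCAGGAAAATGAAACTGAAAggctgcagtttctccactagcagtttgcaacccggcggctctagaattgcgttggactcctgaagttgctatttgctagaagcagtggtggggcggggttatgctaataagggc

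Irf8 and Irf1 are shown for GAS matches without an ISRE, and Igtp and Irgm2 because they share 1 arrangement, a GAS match that starts 11 bases before an ISRE match. The stretches are chr8:120736173-120736357, chr11:53769909-53770013, chr11:58199466-58199555 and chr11:58214887-58214976, all on the plus strand. Over 60 aligned bases, from -60 to -1 of Igtp and from -90 to -31 of Irgm2, 58 were identical.
Irf8: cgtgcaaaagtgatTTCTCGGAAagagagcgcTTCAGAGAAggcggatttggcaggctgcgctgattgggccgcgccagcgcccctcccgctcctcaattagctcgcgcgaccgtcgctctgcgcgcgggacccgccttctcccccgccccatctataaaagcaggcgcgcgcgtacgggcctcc
Irf1: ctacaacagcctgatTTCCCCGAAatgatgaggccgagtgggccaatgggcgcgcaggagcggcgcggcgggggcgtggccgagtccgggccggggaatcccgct
Igtp: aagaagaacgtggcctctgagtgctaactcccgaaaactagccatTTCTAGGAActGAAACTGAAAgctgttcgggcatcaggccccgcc
Irgm2: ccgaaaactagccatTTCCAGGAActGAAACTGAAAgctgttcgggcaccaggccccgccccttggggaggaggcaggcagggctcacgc

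Psmb9 and Tap1 start in opposite directions from 1 shared region of 225 bases, chr17:34187331-34187555 of GRCm38.p6. It is printed on the plus strand, in the direction of Tap1, and has no capitals because neither motif was found in it.
Psmb9 and Tap1, shared: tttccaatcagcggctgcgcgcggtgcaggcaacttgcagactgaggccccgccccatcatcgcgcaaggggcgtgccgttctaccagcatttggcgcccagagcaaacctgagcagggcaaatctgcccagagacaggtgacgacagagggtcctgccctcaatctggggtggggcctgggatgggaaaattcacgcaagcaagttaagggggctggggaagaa

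The arrays differed in tissue markers, and this stands beside every result that follows. A median over 15 gut epithelial genes was 4.46, 3.44 and 4.89 in MBELN 1, 2 and 3, against 16.88, 14.58 and 17.45 in PBS 1, 2 and 3 (log2 values). Heart muscle markers had medians of 18.43 and 18.70 in MBELN 1 and MBELN 3, against 3.80 to 4.04 in PBS, and 3.53 in MBELN 2. In MBELN 2 the neuronal median was 15.56, against 3.75 to 4.45 in PBS. The colon markers stood at 16.13 in PBS 2, and the Paneth cell markers, which belong to the small intestine, at 18.59 and 18.80 in PBS 1 and PBS 3. Of the 15 gut epithelial genes, 8, 2 and 10 were above a dim level, defined below, in MBELN 1, 2 and 3, against 15, 14 and 15 in PBS 1, 2 and 3, and of 9 colon markers 2, 2 and 2 were above it in MBELN, against 4, 9 and 6 in PBS. Markers of the small intestine had medians of 8.37, 3.50 and 7.93 in MBELN, against 18.02, 5.02 and 18.015 in PBS. The colon markers were thus high in PBS 2 alone, and PBS 1 and PBS 3 carried those of another gut segment. The markers thus go against the colon crypt label on every array but PBS 2. PBS 2 carried colon markers, but its median of 5 fibroblast markers was 11.84, against 6.92 and 6.97 in PBS 1 and PBS 3. In MBELN 1, 2 and 3 this median was 10.49, 4.92 and 11.24. That PBS 2 held crypt epithelium alone cannot be taken from these markers. A value of MBELN minus PBS therefore compares the arrays under their labels and cannot be taken as a difference between colon crypts. Treatment and these differences in tissue markers cannot be told apart. In bulk RNA, fewer cells of a type and less RNA per cell cannot be told apart either.

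Values below are log2 values as deposited. They were compared between arrays for 1 gene at a time, since the level of a probe set cannot be set against that of another. Probe sets of odorant and pheromone receptors, 1414 in number, set a dim level for each array, the value that 95 percent of them did not exceed. It lay between 4.10 and 4.44 in MBELN arrays and between 3.99 and 4.33 in PBS arrays. Of the 37 genes, 29, 17 and 26 were above it in MBELN 1, 2 and 3, against 33, 30 and 34 in PBS 1, 2 and 3. The list was above it on all 6 arrays for 14 genes and on none for 1, Oas2. The median over the 37 genes was 6.51, 3.91 and 6.64 in MBELN 1, 2 and 3, against 7.54, 6.60 and 6.61 in PBS 1, 2 and 3, where the medians of all probe sets were 4.44 to 4.55 in MBELN and 4.38 to 4.47 in PBS. MBELN 2 alone lay below the other 5 arrays, and MBELN 1 and MBELN 3 lay within 0.1 of PBS 2 and PBS 3.

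**Figure D1:**
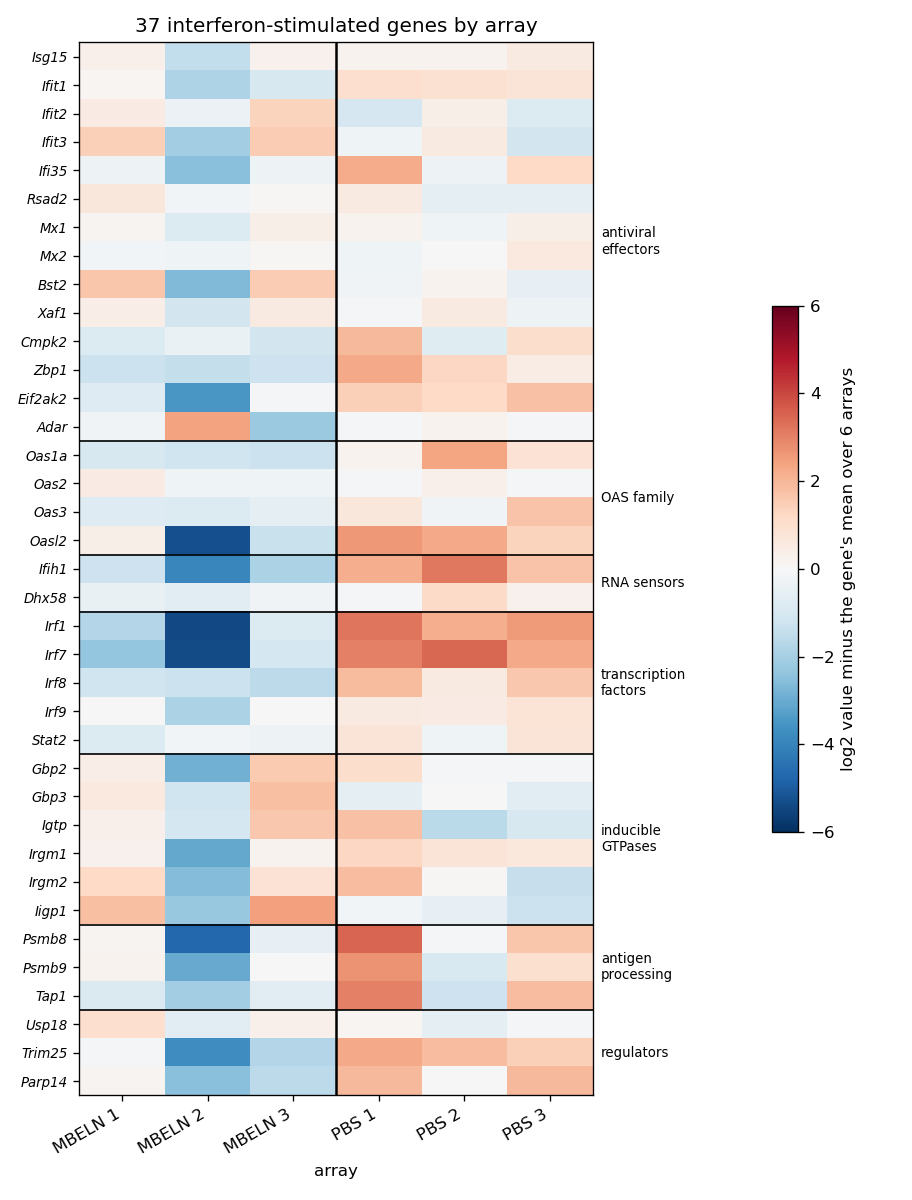
Log2 value of each of the 37 genes minus that gene's mean over the 6 arrays, with the MBELN arrays to the left of the PBS arrays and genes in rows by role. MBELN 2 held the lowest value of 28 genes, and the interferon regulatory factors Irf1 and Irf7 were higher in every PBS array than in any MBELN array.

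The series compared MBELN with PBS. Of the 37 genes, 4 fell in MBELN with limma at an adjusted p of 0.05, and 0 rose, with 12 lower and 0 higher at an unadjusted p under 0.05, which 10.6% and 7.21% of all probe sets reached. The 4 were Irf7, Irf8, Ifih1 and Zbp1. The background over 22206 probe sets was 5.18% called in either direction, 3.76% lower and 1.42% higher, against 4 of 37 (10.8%) lower and 0 higher in the list. The 0 is near the background for higher probe sets and says nothing particular about the list. The median difference over the list was -1.24, against 0.09 over all probe sets. For 14 genes every MBELN array was lower than every PBS array, and for 0 every one was higher, where 13.4% and 11.9% of all probe sets did so, 25.3% together. Without PBS 1, PBS 3, MBELN 1 or MBELN 3, 0 of the 37 passed, with 8, 8, 11 and 9 lower at an unadjusted p under 0.05, beside 7.96%, 8.09%, 8.6% and 8.71% of all probe sets. At the adjusted threshold 325, 328, 410 and 365 of the 22206 probe sets were lower in those 4 settings, so a 0 says little about the list. Without PBS 2, 2 fell (Irf8 and Tap1), which is near the background, as 1301 of the 22206 probe sets were lower. Without MBELN 2, 7 fell and 2 rose, beside 7.32% and 9.51% of all probe sets.

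**Figure D2:**
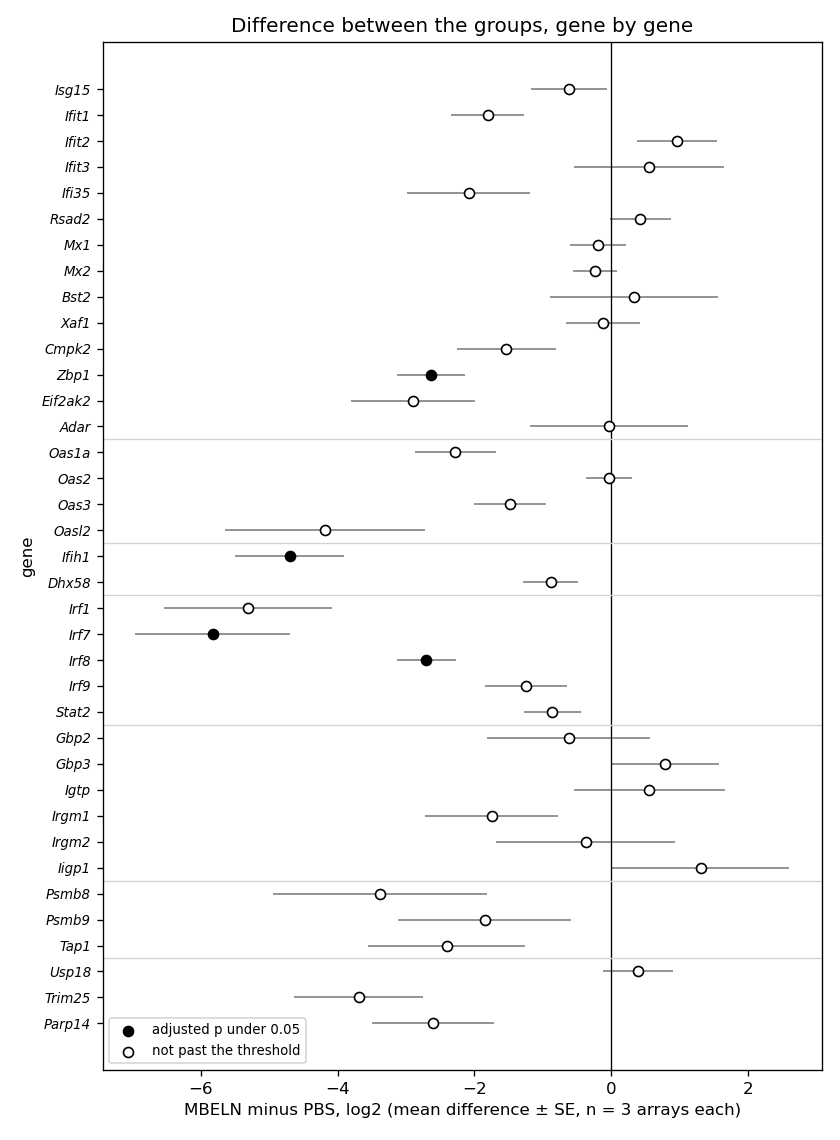
Difference between the groups for each gene, MBELN minus PBS in log2 units, with the standard error of the limma fit (3 arrays each). Filled points passed an adjusted p of 0.05, which were Zbp1, Ifih1, Irf7 and Irf8, all below 0, and open points did not.

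Transcription factors of the response were lower in MBELN for all 5 measured members by the sign of the difference, and 2 of the 5 passed the test. Among all probe sets 3.76% passed it as lower. Role groups of a few genes each do not give a result for a family. Irf7 (probe set TC0700004530.mm.2), the factor that amplifies type I interferon production, read 5.63, 2.59 and 6.86 in MBELN 1, 2 and 3, against 10.97, 11.39 and 10.20 in PBS 1, 2 and 3. The lowest PBS value was above the highest MBELN value by more than 3 log2 units, and MBELN 2 was below the dim level. The difference was -5.83 ± 1.13 (SE, n = 3 each; limma, adjusted p = 0.049). It ranged from -6.74 to -4.61 when 1 array was left out, and its adjusted p from 0.00433 to 0.196. With quantile normalization the adjusted p was 0.0547.

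Irf8 (TC0800001451.mm.2), a factor of macrophages, dendritic cells and B cells that interferon gamma induces, read 4.02, 3.91 and 3.64 in MBELN 1, 2 and 3, against 7.09, 5.75 and 6.83 in PBS 1, 2 and 3. All 3 MBELN values were below the dim level, which puts Irf8 at least 4.74-fold lower in MBELN. The adjusted p of limma was 0.0262, and 0.00949 to 0.129 with 1 array left out. It refers to the difference of -2.70 in the values, with MBELN under the dim level, and not to the bound. The group means were 3.85 ± 0.20 in MBELN and 6.55 ± 0.71 in PBS (SD, n = 3). B cell and plasma cell markers, 6 measured, had medians of 3.98, 3.32 and 3.25 in MBELN and 7.83, 5.40 and 3.92 in PBS. Macrophage markers had medians of 11.85, 7.29 and 11.32 in MBELN and 6.53, 10.41 and 4.89 in PBS. The median of 6 dendritic cell markers lay between 3.23 and 3.40 in MBELN arrays and between 3.13 and 3.49 in PBS arrays, with 2 of 6 above the dim level in each array, Siglech and Bst2, of which Bst2 is also among the 37 genes. The part of these cells in the difference was not tested.

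Irf1, the factor through which interferon gamma switches on antigen processing, read 7.70, 4.04 and 8.65 in MBELN 1, 2 and 3, against 12.68, 11.62 and 12.02 in PBS 1, 2 and 3. The groups did not overlap, but the spread among MBELN arrays (SD 2.43) left the difference of -5.31 ± 1.23 (SE) short of the threshold (adjusted p = 0.0819). Irf9 and Stat2, members of the ISRE-binding complex, differed less. Irf9 read 7.06, 5.10 and 7.04 in MBELN, against 7.54, 7.52 and 7.85 in PBS (adjusted p = 0.361). Stat2, the gene of this role with the smallest range, read 6.15, 6.78 and 6.66 in MBELN, against 7.73, 6.68 and 7.74 in PBS, and its groups overlapped (adjusted p = 0.357).

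Cytosolic RNA sensors had 1 of 2 members past the test, as lower, beside 3.76% of all probe sets. Ifih1 (TC0200003630.mm.2) encodes MDA5, which detects long double-stranded RNA, and read 8.04, 5.39 and 7.40 in MBELN 1, 2 and 3, against 11.48, 12.46 and 10.98 in PBS 1, 2 and 3. Every value was above the dim level and the groups were apart by close to 3 log2 units. Ifih1 fell by 4.70 ± 0.80 (log2, SE, n = 3 each; limma, adjusted p = 0.0329), with adjusted p-values of 0.00635 to 0.139 when 1 array was left out. Dhx58, which encodes the regulator LGP2, read 3.26, 3.04 and 3.52 in MBELN, against 3.64, 4.85 and 3.98 in PBS, and was above the dim level in PBS 2 only, so its values say little.

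Of 14 antiviral effectors on the array, 1 fell and 0 rose with limma (3 and 0 at an unadjusted p under 0.05), and the median difference was -0.21. The shares over all probe sets were 3.76% and 1.42% (10.6% and 7.21% unadjusted). Zbp1 (TC0200005290.mm.2), a sensor of Z-form nucleic acid that triggers cell death, read 2.61, 2.45 and 2.66 in MBELN 1, 2 and 3, against 6.15, 5.12 and 4.36 in PBS 1, 2 and 3. No MBELN value reached the dim level, which leaves a change of at least 1.87-fold. The p-value of limma refers to the difference of -2.64 in the values and not to this bound (adjusted p = 0.0451, and 0.0332 to 0.15 with 1 array left out). It draws on MBELN values under the dim level, which lay close together (SD 0.11, against 0.90 in PBS). Eif2ak2, which encodes the kinase PKR that halts translation on double-stranded RNA, read 6.51, 3.81 and 7.20 in MBELN, against 8.72, 8.46 and 9.03 in PBS. Its PBS values were close together and its MBELN values were not (SD 0.28 and 1.79), and the difference of -2.89 did not pass (adjusted p = 0.173).

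Adar, the enzyme that edits adenosine in double-stranded RNA, varied widely among the MBELN arrays (SD 2.33, against 0.18 in PBS). It read 9.10, 11.72 and 7.08 in MBELN 1, 2 and 3, against 9.21, 9.54 and 9.24 in PBS 1, 2 and 3. MBELN 2, the array with neuronal markers, held its highest value, while that array held the lowest value of 28 of the 37 genes. Ifi35 read 6.66, 4.48 and 6.64 in MBELN, against 9.21, 6.65 and 8.16 in PBS (adjusted p = 0.312). Mx2, a dynamin-like restriction factor and the effector with the smallest range, lay between 3.65 and 3.97 in MBELN and between 3.64 and 4.48 in PBS, and was above the dim level in PBS 3 only. Its relative Mx1, which in C57BL/6 mice carries an inactivating deletion, lay between 3.27 and 4.40 in MBELN and between 3.79 and 4.40 in PBS.

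The Ifit genes, neighbours that encode binders of foreign RNA ends, did not share 1 order. They and Bst2 and Isg15 are given in full because of the values seen in them. Ifit1 read 5.73, 3.77 and 4.63 in MBELN 1, 2 and 3, against 6.63, 6.50 and 6.39 in PBS 1, 2 and 3, with no overlap (adjusted p = 0.152). Ifit3 read 8.42, 4.92 and 8.52 in MBELN, against 6.74, 7.55 and 5.89 in PBS, so that MBELN 1 and MBELN 3 lay above every PBS array and MBELN 2 below (adjusted p = 0.829). Ifit2 was also above every PBS array in MBELN 1 and MBELN 3, at 5.40 and 6.22, and read 4.55 in MBELN 2, against 3.91, 5.27 and 4.08 in PBS. The promoters of Ifit1 and Ifit3 shown above hold the same ISRE letters. Close copies of Ifit3 and of Oas1a exist in the mouse, and whether their transcripts reach these probe sets is not given in the sources used here. Ifit3b, on its own probe set, read 8.11, 5.49 and 8.41 in MBELN 1, 2 and 3, against 5.47, 7.16 and 6.13 in PBS. Oas1g read 4.91, 4.74 and 4.29 in MBELN, against 6.79, 8.80 and 7.05 in PBS, whereas Oas1b and Oas1c overlapped between the groups.

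Bst2, the tether that holds budding virus at the cell surface, read 8.65, 4.32 and 8.51 in MBELN 1, 2 and 3, against 6.77, 7.18 and 6.50 in PBS 1, 2 and 3. The order was that of Ifit3 except for MBELN 1 and MBELN 3, which lay close together. The endothelial median was 12.36, 4.94 and 12.005 in MBELN, against 4.09, 4.78 and 3.62 in PBS, and the macrophage median is given above; their part in these values was not tested. Isg15, the ubiquitin-like modifier that names the family, read 4.47, 2.67 and 4.40 in MBELN, against 4.35, 4.35 and 4.69 in PBS, and its 3 PBS values and MBELN 1 lay above the dim level by at most 0.7. The remaining effectors, Rsad2, Xaf1 and Cmpk2, read between 4.54 and 7.56 in MBELN and between 4.07 and 9.45 in PBS. Of these, Cmpk2, a mitochondrial nucleotide kinase beside Rsad2 in the genome, read 6.67, 7.11 and 6.41 in MBELN, against 9.45, 6.78 and 8.55 in PBS.

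The OAS family, named for enzymes that make the oligoadenylate signal for RNase L, had 0 of 4 members past the threshold with limma. At an unadjusted p under 0.05, 3 were lower, beside 10.6% of all probe sets. Oasl2 read 8.94, 3.29 and 7.27 in MBELN 1, 2 and 3, against 11.21, 10.88 and 9.94 in PBS 1, 2 and 3 (difference -4.18 ± 1.46, SE; adjusted p = 0.219). Oas1a read 4.07, 3.80 and 3.73 in MBELN, all below the dim level, against 5.21, 7.37 and 5.85 in PBS (adjusted p = 0.112), with its highest value in PBS 2. Oas3 read 2.79, 2.75 and 2.99 in MBELN, against 4.26, 3.38 and 5.30 in PBS (adjusted p = 0.226). Of these, Oasl2, Oas1a and Oas3 had no overlap between the groups, and 13.4% of all probe sets were lower in MBELN without overlap. Oas2 lay between 2.92 and 3.69 in MBELN and between 3.06 and 3.50 in PBS, below the dim level on every array, and no change can be read from it.

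**Figure D3:**
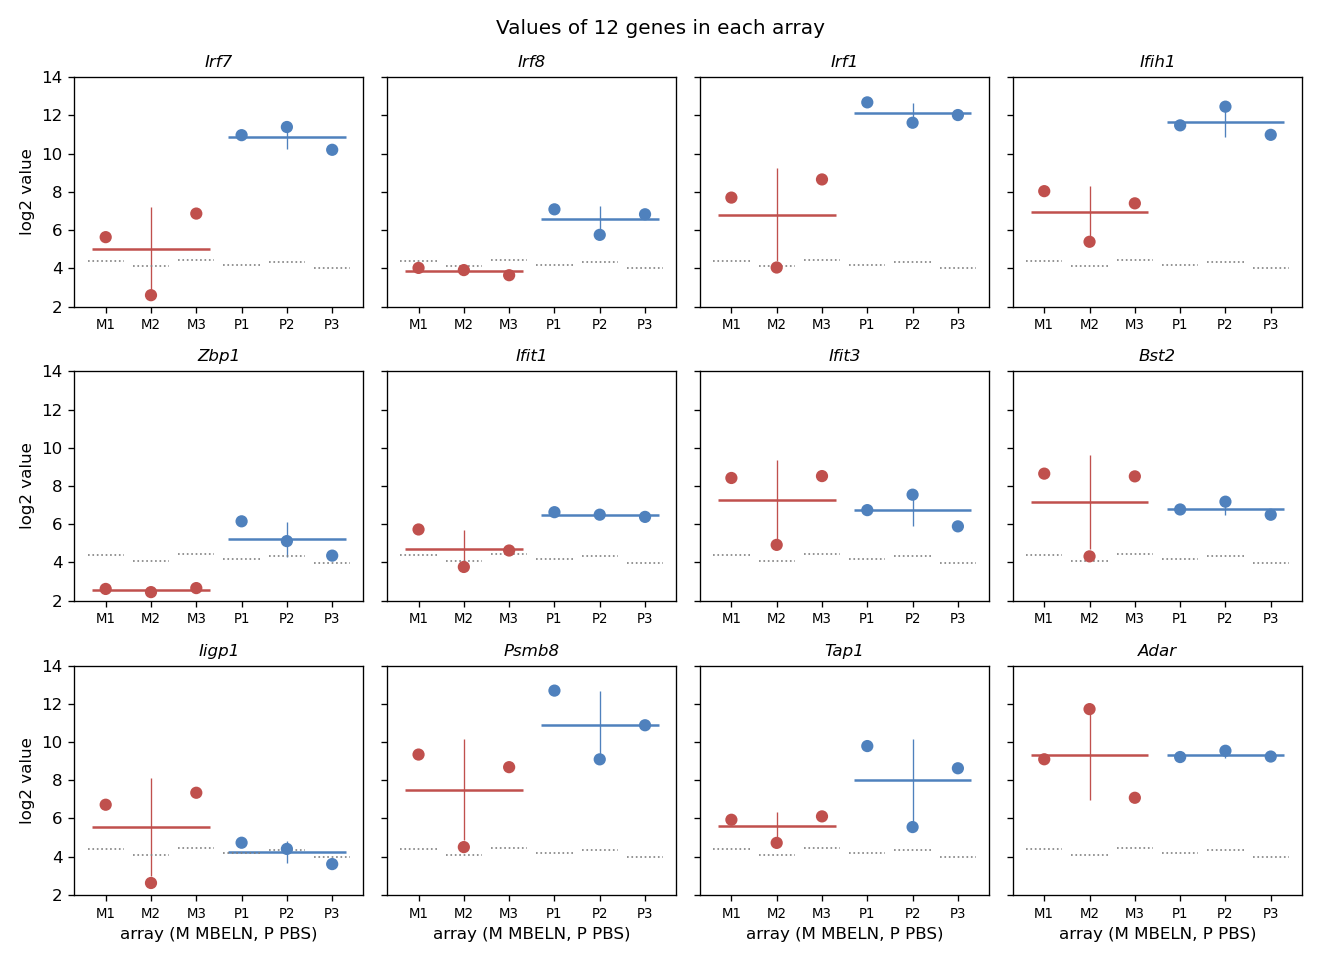
Log2 values of 12 genes in each array, MBELN (M1 to M3) left of PBS (P1 to P3), with a horizontal line at the group mean, a vertical line of 1 SD either side and a dotted line at the array's dim level. Irf7, Irf8, Irf1, Ifih1, Zbp1 and Ifit1 did not overlap between the groups, whereas Ifit3, Bst2 and Iigp1 were above every PBS array in M1 and M3 and Adar in M2 alone.

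Interferon-inducible GTPases, which coat and break the vacuoles of intracellular microbes, had 0 of 6 members past the threshold with limma, and 0 at an unadjusted p under 0.05, with a median difference of 0.10. As 5.18% of all probe sets passed the threshold, 0 of 6 says little. Iigp1 read 6.72, 2.62 and 7.34 in MBELN 1, 2 and 3, against 4.73, 4.40 and 3.61 in PBS 1, 2 and 3. MBELN 1 and MBELN 3 were above all PBS arrays by 2 log2 units or close to it, and MBELN 2 below them. Gbp2 read 7.06, 3.75 and 8.25 in MBELN, against 7.69, 6.60 and 6.61 in PBS. Gbp3, with the smallest range of the GTPases, read 6.69, 4.92 and 7.91 in MBELN, against 5.56, 6.12 and 5.46 in PBS. In all 6 genes MBELN 2 was below MBELN 1 and MBELN 3, which 46.2% of all probe sets showed.

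Irgm2 read 8.07, 4.26 and 7.74 in MBELN 1, 2 and 3, against 8.71, 6.97 and 5.51 in PBS 1, 2 and 3. Igtp, whose promoter stretch is nearly that of Irgm2, read 6.23, 4.88 and 7.54 in MBELN, against 7.67, 4.30 and 4.99 in PBS. Both had their highest value in PBS 1, but PBS 3 was the lowest PBS array for Irgm2 and PBS 2 for Igtp. Irgm1, a regulator of the other GTPases, lay between 5.27 and 8.62 in MBELN and between 8.99 and 9.59 in PBS, with no overlap (adjusted p = 0.431).

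Antigen-processing genes varied within PBS as well as between the groups. Psmb8, a catalytic subunit of the immunoproteasome, read 9.34, 4.50 and 8.68 in MBELN 1, 2 and 3, against 12.69, 9.09 and 10.88 in PBS 1, 2 and 3. Psmb9, another such subunit, read 6.70, 3.47 and 6.48 in MBELN, against 9.19, 5.57 and 7.43 in PBS. Tap1, a chain of the transporter that carries peptides to MHC class I, read 5.93, 4.72 and 6.11 in MBELN, against 9.79, 5.55 and 8.62 in PBS. PBS 1 was highest and PBS 2 lowest of the PBS arrays for all 3, and PBS 2 lay within the MBELN range.

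None of the 3 passed the test, which 5.18% of all probe sets did, with adjusted p-values of 0.341 for Psmb8, 0.523 for Psmb9 and 0.356 for Tap1. The mean of PBS 1 and PBS 3 exceeded PBS 2 by 2.69 for Psmb8, 2.74 for Psmb9 and 3.66 for Tap1. Psmb9 and Tap1, which share the promoter region printed above, ranked the 6 arrays alike except for MBELN 1 and MBELN 3, whose values lay close together. T cell and intraepithelial lymphocyte markers had medians of 3.21, 3.05 and 3.20 in MBELN and 5.02, 3.74 and 4.07 in PBS, with 2, 1 and 1 of 9 above the dim level in MBELN and 8, 1 and 5 in PBS. The part of lymphocytes in these values was not tested.

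Regulators had 0 of 3 members past the threshold with limma, and 2 were lower at an unadjusted p under 0.05, beside 10.6% of all probe sets. Trim25, the ubiquitin ligase that helps to activate RIG-I, read 6.94, 3.28 and 5.24 in MBELN 1, 2 and 3, against 9.26, 8.84 and 8.43 in PBS 1, 2 and 3, with no overlap (adjusted p = 0.106). Parp14, an ADP-ribosyltransferase, read 5.84, 3.19 and 4.11 in MBELN, against 7.65, 5.67 and 7.64 in PBS. Usp18, which removes Isg15 from proteins and damps the type I receptor, read 5.12, 3.40 and 4.39 in MBELN, against 4.20, 3.50 and 4.0 in PBS, within 1 log2 unit of the dim level on every array.

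Over the whole list, MBELN 2 was the lowest of the 6 arrays for 28 of 37 genes (75.7%), against 27.3% of all probe sets. It lay below all PBS arrays for 30 genes (81.1% against 36.2% of all probe sets) and above them for 1, Adar (2.7% against 33.3%). MBELN 1 and MBELN 3 both lay below all PBS arrays for 17 genes (45.9% against 20.8%) and above them for 6 (16.2% against 25.1%), which were Ifit2, Ifit3, Bst2, Gbp3, Iigp1 and Usp18. These shares describe the arrays and have no test of their own. With PBS 2 and MBELN 2 both left out, a setting chosen with the values known, 16 of the 37 fell and 5 rose, where 15.4% of all probe sets were lower and 15.1% higher. It sets the arrays with heart markers against those with Paneth cell markers. The 16 held the 4 genes called over all arrays, and among the 5 were Ifit3 at 2.16, Bst2 at 1.94 and Iigp1 at 2.86 log2 units (adjusted p = 0.00534, 0.00363 and 0.0034). Without MBELN 2 alone, 7.32% of probe sets were lower and 9.51% higher, and the 2 genes that rose were Bst2 and Iigp1.

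**Figure D4:**
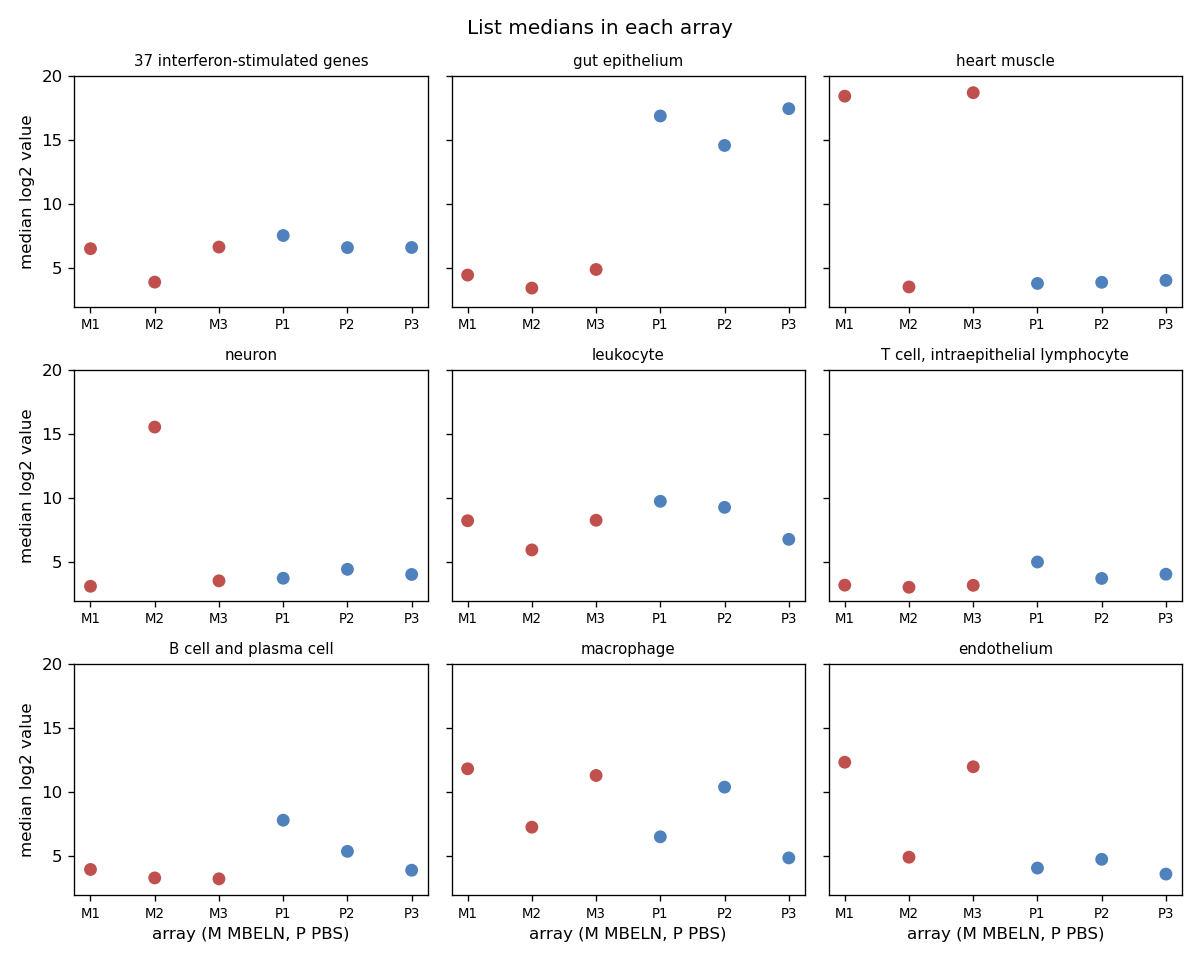
Median log2 value of the 37 interferon-stimulated genes and of 8 marker lists in each array, MBELN (M1 to M3) left of PBS (P1 to P3). The medians of the 37 genes, 3.91 to 6.64 in MBELN and 6.60 to 7.54 in PBS, spanned less than those of the gut epithelium, heart muscle and neuron lists.

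Markers of blood cells were not even across the arrays. Medians of 6 leukocyte markers were 8.24, 5.96 and 8.28 in MBELN 1, 2 and 3, against 9.76, 9.29 and 6.79 in PBS 1, 2 and 3, and all 6 were above the dim level on every array. MBELN 2 had the lowest median of the 6 arrays in this list, as in 8 of the 15 marker lists examined, among them gut epithelium, colon and heart muscle. MBELN 1 and MBELN 3 both stood above PBS 3 in the leukocyte median, and both stood below PBS 1 and PBS 2. Single markers were mixed. Laptm5, Cd53, Cd52 and Lcp1 were higher in MBELN 1 and MBELN 3 than in PBS 3. Coro1a read 5.47 and 5.84, against 5.92 in PBS 3, and Ptprc read 8.16 and 7.62, against 7.76. Of the 37 genes, 11 were higher in MBELN 1 and MBELN 3 than in PBS 3 (29.7%, against 44.6% of all probe sets). In both arrays 25 were lower than in PBS 3 (67.6%, against 36.2%). The part of leukocytes in the interferon-stimulated genes was not tested.

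Other genes of the pathway gave 12 of 118 measured genes lower and 0 higher (limma), beside 3.76% and 1.42% of all probe sets. At an unadjusted p under 0.05, 38 were lower and 1 higher, beside 10.6% and 7.21%. Of 19 interferon genes 0 passed, with 0 at an unadjusted p under 0.05, and 16 were at or below the dim level on every array. Ifng, the interferon of T and NK cells, read 2.99, 4.07 and 3.86 in MBELN, against 2.44, 2.97 and 2.86 in PBS, all below the dim level. Of 9 receptor and kinase genes, 1 fell. This was Jak2, a kinase of the interferon gamma receptor, with 8.05, 9.45 and 8.58 in MBELN, against 12.29, 11.46 and 12.58 in PBS (adjusted p = 0.0211). Ifnlr1, the specific chain of the type III receptor, read 3.72, 3.0 and 3.33 in MBELN, all below the dim level, against 5.33, 5.38 and 4.58 in PBS (adjusted p = 0.0592).

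Of 17 nucleic acid sensing genes, 1 fell, Tlr3, the endosomal sensor of double-stranded RNA, which read 7.81, 7.19 and 7.95 in MBELN 1, 2 and 3, against 10.53, 9.60 and 10.65 in PBS 1, 2 and 3 (adjusted p = 0.0264). Of 61 further interferon-stimulated genes, 8 fell and 0 rose, beside 3.76% and 1.42% of all probe sets. Parp12, an antiviral ADP-ribosyltransferase, fell by 5.87 ± 0.58 (log2, SE, n = 3 each; adjusted p = 0.00597), with 7.73, 6.05 and 7.54 in MBELN, against 13.13, 13.44 and 12.34 in PBS. Trim14, an adaptor of Mavs signalling, was below the dim level in all MBELN arrays and at least 16.5-fold lower (adjusted p = 0.00248). Oasl1 was also below it in all MBELN arrays and at least 1.81-fold lower (adjusted p = 0.033). The others were Dtx3l, Trim30d, Tapbpl, Lgals3bp and Epsti1, with differences from -5.14 to -3.05 (log2). Of 12 negative regulators, 2 fell, the repressor Irf2 by 2.62 ± 0.43 and the phosphatase Ptpn6 by 3.73 ± 0.71 (log2, SE). In the same arrays the gut epithelial median stood at 3.44 to 4.89 in MBELN, against 14.58 to 17.45 in PBS, and its part in these falls was not tested. Without PBS 1 or PBS 3, 2 of the 118 passed, all lower, beside 325 and 328 of the 22206 probe sets that were lower. Without MBELN 1 or MBELN 3, 4 did, beside 410 and 365.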

How the data were processed

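The authors deposited 1 log2 value for each probe set on each array. The submitters' processing notes list Transcriptome Analysis Console 4.0. That the scale is log2 was inferred from values of 1.77 to 19.9 over transcript probe sets. How the values were background-corrected, normalized and summarized, and against which build, is not stated in these sources, and the labels name both an Affymetrix and an Ion AmpliSeq protocol. The 6640 array controls were left out. Of the 22206 probe sets tested, 19572 had 1 gene symbol, 0 several and 2634 none. All 37 symbols matched a RefSeq gene table through Entrez identifiers.

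MBELN was compared with PBS, groups being taken from the titles. Linear models of limma 3.58.1 (lmFit, then eBayes, in R 4.3.3) were fitted to the deposited values without covariate or filter, two-sided, with Benjamini-Hochberg adjustment over all probe sets (4 residual and 1.66 prior degrees of freedom). Where every array of 1 group was under the dim level, the fold is a bound, computed against the mean of that group's dim levels. The p-value then refers to the deposited values and not to the bound. The fit was tested on simulated data. These were independent normal values with the same spread in both groups, so the simulation does not cover arrays that differ in tissue markers. Members, role groups, marker lists and pathway lists were chosen with earlier results of these data known. Genes given in full were those past the threshold and, in each role group, the 3 with the largest and the 1 with the smallest range over the arrays. Others given in full were chosen after their values were seen. Alternatives covered the scale between arrays, dim probe sets, the variance model, array weights, a replicate block, the threshold, the dim level and left-out arrays. Those on the hybridisation controls and without both arrays numbered 2 were added after the values were seen. Figures were drawn with matplotlib 3.10.9.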

Additional observations from a re-analysis of the deposited data

How the results depend on the processing

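The 4 falls among the 37 genes became 3 or 4 with quantile normalization, with median centring, without dim probe sets, with a trended and robust variance and with a block for the level of the hybridisation controls, and 5 at a threshold of 0.1. The counts of lower and higher genes of the 37 were 16 and 3 with array weights, 16 and 5 without the arrays numbered 2, 8 and 2 within the higher hybridisation control level (PBS 2 alone against MBELN 1 and 3) and 20 and 1 within the lower level (MBELN 2 alone against PBS 1 and 3). In the last 2 settings a single array takes the spread of the other group. Without single arrays the counts ran from 0 to 7 and from 0 to 2, and 0 fell at a threshold of 0.01 (limma, 12 at an unadjusted p under 0.05). For the 118 other pathway genes (12 and 0 as reported) they were 38 and 7, 39 and 17, 28 and 9, and 60 and 1 in those 4 settings, 2 to 26 and 0 to 5 without single arrays, 2 lower at a threshold of 0.01, and 22 and 1 at 0.1. For all probe sets (835 lower and 315 higher) they were 2887 and 2870, 3415 and 3354, 2045 and 2129, and 3503 and 3731, 325 to 1626 and 51 to 2112 without single arrays, 339 and 68 at 0.01, 556 higher at 0.1, and 193 higher with the trended variance. Fewer arrays entered the settings that left some out. Otherwise the cause was not tested. With the replicate number as a block, 0 of the 37 (limma, 16 lower at an unadjusted p under 0.05), 4 of the 118, and 393 lower and 63 higher of all probe sets passed. Deviations of same-numbered arrays correlated at -0.03, -0.07 and -0.06. Because arrays within a group differ in tissue markers, these correlations cannot show whether the numbers pair mice. At the 99th percentile of the receptor probe sets, 10 of the 37 genes were above the dim level in MBELN 2, against 17 at the 95th. Medians of the list moved by less than their spread under both scalings, and no gene had a second probe set to try.

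Signs turned in genes that had not passed the test. Within the lower hybridisation control level 2 of them then passed, Bst2 at -2.32 and Adar at 2.49 (MBELN minus PBS, log2), and Ifit3 (-1.39), Rsad2 (-0.11), Gbp3 (-0.59), Igtp (-1.45), Iigp1 (-1.55) and Usp18 (-0.70) also turned. Within the higher level this held for Isg15 (0.087), Mx1 (0.54), Gbp2 (1.05), Irgm2 (0.94), Psmb9 (1.02) and Tap1 (0.47), and with the level as a block for Ifit3 (-0.24), Bst2 (-0.46) and Adar (0.52). Xaf1, Oas2, Gbp2 and Irgm2 turned to 0.48, 0.22, 0.20 and 0.29 with array weights and to 0.66, 0.24, 0.50 and 0.80 without the arrays numbered 2. Adar stood at 0.15 with quantile normalization. Without single arrays the differences that crossed 0 ranged from -0.0545 to 1.75 for Ifit3, -0.40 to 0.16 for Mx1, -0.40 to 1.76 for Bst2, -0.42 to 0.41 for Xaf1, -1.24 to 1.08 for Adar, -0.29 to 0.11 for Oas2, -1.56 to 0.68 for Gbp2, -0.12 to 1.57 for Igtp, -1.15 to 0.85 for Irgm2 and -0.0092 to 0.85 for Usp18.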
